A study of Homo sapiens with 27 samples.

Results

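Mitochondrial ribosomal protein genes were taken as the gene symbols that start with MRPL (46 kept) or MRPS (29 kept), followed only by digits and at most 1 letter A, B or C. Of 76 such symbols, 75 had a normalised read count of 10 or more in at least 3 of the 27 libraries, and these 75 genes are described here. MRPL30 was the 1 symbol left out. It reached 10 in 0 libraries, with a highest value of 1.76, whereas the lowest value of any kept gene in any library was 138 (MRPL12). By a later annotation, 2 other genes overlap exons of MRPL30 on the same strand, and their part in its low count was not tested. The table held 20987 genes, of which 14591 passed the same filter.

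RNA sequencing was carried out on 3 human prostate cancer cell lines treated for 6 days, with no change of medium, with IPI-9119, a small molecule inhibitor of fatty acid synthase, at 100 nM or 500 nM, or with the vehicle DMSO. Fatty acid synthase, encoded by FASN, makes palmitate for membranes and lipid stores. The groups were LNCaP at 100 nM, 500 nM and DMSO, 22Rv1 at 100 nM, 500 nM and DMSO, and LNCaP95 at 100 nM, 500 nM and DMSO, with 3 libraries each. The labels call LNCaP, a line started from a lymph node metastasis, androgen sensitive, and call both 22Rv1, started from a xenograft that had relapsed, and the LNCaP subline LNCaP95 castration resistant. The labels give no engineered allele for any group. LNCaP and LNCaP95 share an origin, so the lines are not 3 independent tumours. The labels do not say whether replicates came from separate cultures, so p-values measure only how far these libraries spread, and that spread may be technical.

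The mitochondrial ribosome translates the few messenger RNAs transcribed from mitochondrial DNA, all of which code for subunits of the respiratory chain and ATP synthase. Its ribosomal RNAs come from mitochondrial DNA, but all of its proteins are encoded in the nucleus, translated in the cytosol and imported. MRPL genes are named for the large subunit and MRPS genes for the small one; some encode counterparts of bacterial ribosomal proteins and others are specific to mitochondria. The names do not always give the place: the proteins of MRPS18A and MRPS30 sit in the large subunit, and that of MRPS36 belongs to the ketoglutarate dehydrogenase complex.

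Reads in genes numbered 14757874 to 26578881 per library, and the deposited value of 1 read was 0.757 to 1.39. In each line all 9 luminal prostate markers had a median of 10 or more normalised counts, and 0 of 3 basal markers did. Markers of other cell types were not all low: of 3 genes in each list, the number with such a median in LNCaP, 22Rv1 and LNCaP95 was 1, 2 and 1 for neuroendocrine cells, 1, 2 and 1 for fibroblasts, 0, 0 and 1 for leukocytes, and 1, 0 and 0 for endothelial cells. The leukocyte gene in LNCaP95 was PTPRC (65.4 to 139 normalised counts over the line's 9 libraries) and the endothelial gene in LNCaP was VWF (197 to 376). The part of these genes' source in the results was not tested. FASN, the gene of the drug's target, rose at 500 nM in every line, by 2.14 ± 0.52 on the log2 scale in LNCaP, 1.68 ± 0.14 in 22Rv1 and 0.98 ± 0.14 in LNCaP95 (limma adjusted p = 0.0145, 5.3e-05 and 7.1e-05). Some libraries stood apart. The 22Rv1 DMSO replicate 3 library had 18444 genes above 0, against 14863 to 15962 in all others. In LNCaP95, the replicate 2 libraries had 7.56% of reads in mitochondrially encoded mRNAs at 100 nM and 6.92% at 500 nM, against 1.78% to 3.75% in the line's other libraries. In 22Rv1, the 100 nM replicate 2 library had the highest share of its group in the 75 genes (0.656%, against 0.586% and 0.554%), and also in cytosolic ribosomal protein genes (14.2%, against 10.9% and 10.3%).

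Summed over the 75 genes, LNCaP95 was the line in which the share of reads changed most with the drug. The genes took 0.592%, 0.615% and 0.635% of reads at 100 nM and 0.591%, 0.639% and 0.666% at 500 nM, against 0.752%, 0.811% and 0.783% with DMSO. The highest treated LNCaP95 library was thus below the lowest DMSO library. In LNCaP the shares were 0.651%, 0.738% and 0.693% at 100 nM and 0.635%, 0.628% and 0.620% at 500 nM, against 0.615%, 0.612% and 0.613% with DMSO, so every treated library was above every DMSO library. On the deposited normalised scale this held at 100 nM alone: the 75 genes summed to 131389 to 151641 at 100 nM and 121584 to 127860 at 500 nM, against 125226 to 131339 with DMSO, so the 500 nM and DMSO libraries overlapped. In 22Rv1 they were 0.586%, 0.656% and 0.554% at 100 nM and 0.595%, 0.573% and 0.569% at 500 nM, against 0.647%, 0.589% and 0.580% with DMSO, and the groups overlapped. A lower share in bulk RNA can come from fewer cells that express the genes or from less of their RNA per cell, which cannot be told apart here. A share also moves with the reads taken by other genes. In LNCaP, cytosolic ribosomal protein genes averaged 14.8% of reads with DMSO and 10.9% at 500 nM, and the part of this in the shares was not tested. In LNCaP95 the normalised sums were 109552 to 118364 at 100 nM and 108601 to 122481 at 500 nM, against 136359 to 149566 with DMSO.

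**Figure D1:**
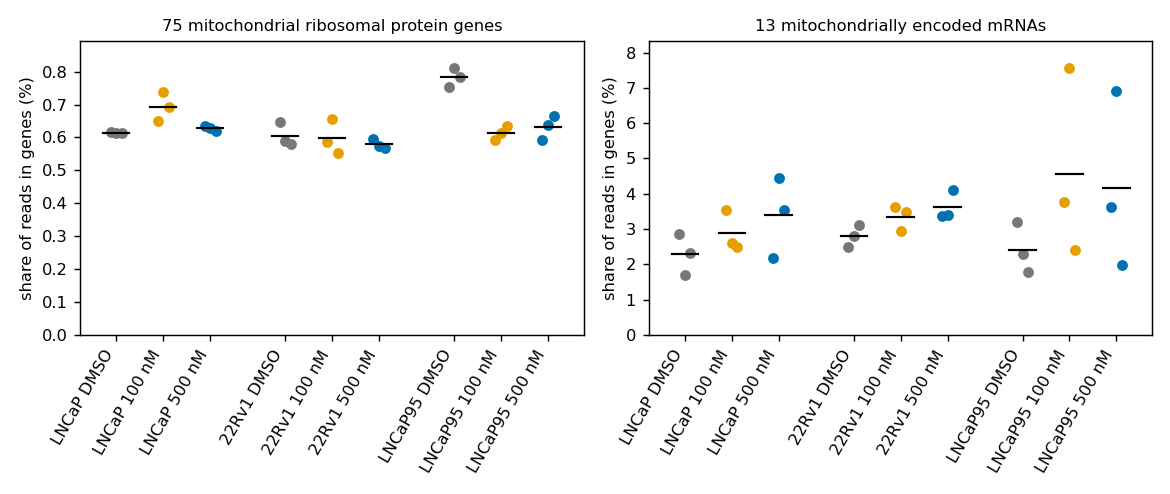
Share of reads in genes (percent, vertical axis) taken by the 75 mitochondrial ribosomal protein genes (left) and by 13 mitochondrially encoded mRNAs (right). Points are libraries, 3 per group of line and dose, and horizontal bars are group means; treated LNCaP95 libraries lie between 0.591% and 0.666% on the left, below the DMSO libraries of that line at 0.752% to 0.811%.

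Levels were compared between genes only per kilobase of transcript, as the median over 27 libraries. MRPL20 was highest at 7354 per kb, followed by MRPL24 at 3947, MRPL51 at 3744, MRPL37 at 3202 and MRPS33 at 3058. MRPL35 was lowest at 172 per kb, after MRPS25 at 187, MRPL50 and MRPL42 at 227 each and MRPS31 at 242. Lengths were those of annotated principal transcripts, which need not be the isoform made in these cells. Across the 9 groups the highest group mean of a gene was 1.21 to 2.83 times its lowest, with a median of 1.67. The flattest gene was MRPL24, with means of 3915 in LNCaP DMSO and 3238 in 22Rv1 DMSO. MRPL20 spread furthest, with means of 6559 in LNCaP95 DMSO and 2316 in 22Rv1 DMSO. LNCaP95 DMSO was the highest group for 27 of the 75 genes and LNCaP at 100 nM for 23.

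In LNCaP95 at 500 nM, 49 of the 75 genes fell and 4 rose against DMSO (limma, adjusted p under 0.05). Over all genes tested, 24.1% were called lower and 28.2% higher. The median log2 fold change was -0.29 over the 75 genes and 0.03 over all genes. At 100 nM, 52 fell and 4 rose, with the same 24.1% lower and 28.2% higher over all genes and a median of -0.32 over the 75. Of the 75, 48 fell at both doses, 1 fell at 500 nM only (MRPL40), 4 fell at 100 nM only (MRPL20, MRPL55, MRPL44 and MRPS18A), 4 rose at both and 18 were called at neither. Both doses were set against the same 3 DMSO libraries. The doses themselves did not separate: 0 of the 75 genes differed between 500 nM and 100 nM by limma, edgeR or DESeq2, 0 had an unadjusted p under 0.05 (0.74% of all genes), and 0% of all genes were called. With replicate 2 left out of each LNCaP95 group, the libraries with the high mitochondrially encoded shares among them, 43 genes were called lower and 3 higher at 500 nM, and 47 lower and 3 higher at 100 nM.

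The falls were spread over both subunits. Among MRPL genes at 500 nM, 32 of 46 fell and 2 rose, with a median of -0.30, and among MRPS genes 17 of 29 fell and 2 rose, with a median of -0.24. Of 45 genes whose proteins have a bacterial counterpart, 32 fell and 2 rose, with a median of -0.34. Of 29 without one, 17 fell and 2 rose, with a median of -0.24. MRPS36, left out of that split because its protein is not a ribosomal one, had 451, 529 and 538 normalised counts at 500 nM, against 538, 362 and 619 with DMSO. Its groups overlapped, with a difference of 0.03 ± 0.16 (adjusted p = 0.885).

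**Figure D2:**
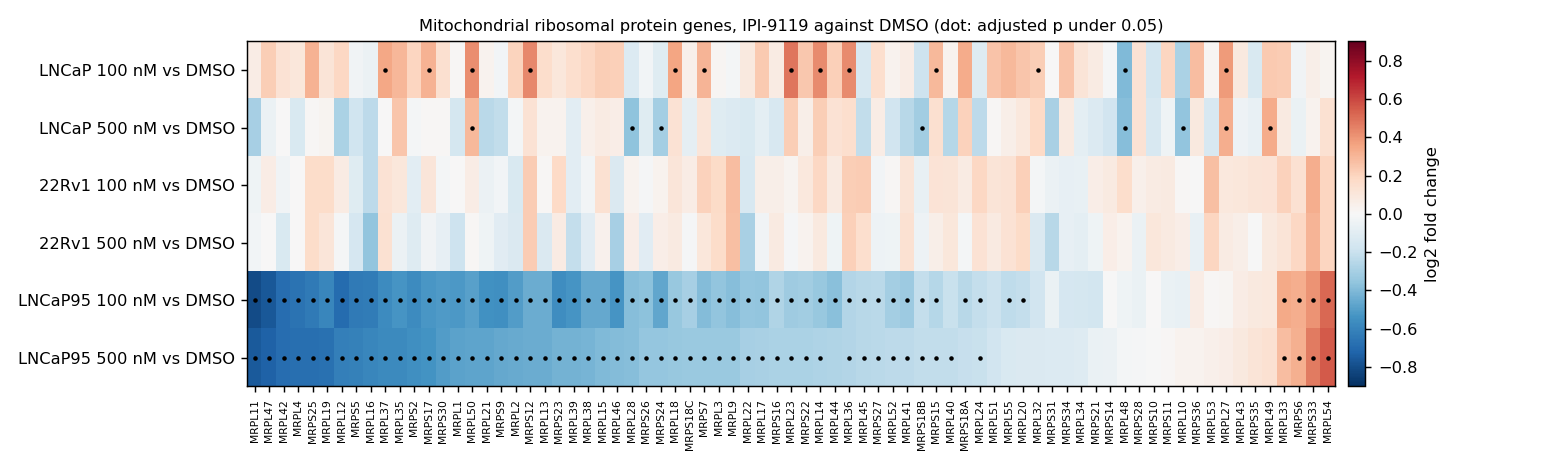
Log2 fold change against DMSO (colour) for each of the 75 genes (columns, sorted by the LNCaP95 500 nM value) in 6 comparisons (rows). A black dot marks an adjusted p under 0.05; in the LNCaP95 rows 49 genes at 500 nM and 52 at 100 nM are called lower and 4 higher at each dose, while the 22Rv1 rows have no dot.

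The largest fall in LNCaP95 was that of MRPL11, whose protein forms part of the stalk base where translation factors bind. It had 942, 1163 and 1123 normalised counts at 100 nM and 997, 1200 and 1132 at 500 nM, against 1775, 2047 and 1806 with DMSO. All treated libraries were below all DMSO libraries. The log2 fold change at 500 nM was -0.76 ± 0.10 (SE, n = 3 libraries per group; limma adjusted p = 2.9e-05), or 0.591-fold. MRPL47, a large subunit gene with a bacterial counterpart, followed, at 1362, 1525 and 1380 at 100 nM and 1237, 1565 and 1583 at 500 nM, against 2140, 2913 and 2248 with DMSO. The groups did not overlap, and the change at 500 nM was -0.73 ± 0.12 (limma adjusted p = 2.0e-04). MRPL47 has an exon that overlaps ACTL6A on the other strand, so its count is less certain than that of MRPL11, which overlaps no gene.

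At the other end, 4 genes rose at both doses. MRPL54, a large subunit protein specific to mitochondria, had 853, 822 and 754 normalised counts at 100 nM and 850, 859 and 784 at 500 nM, against 544, 661 and 501 with DMSO. The groups did not overlap, and the change at 500 nM was 0.55 ± 0.10 (limma adjusted p = 4.4e-04), or 1.47-fold. MRPS33, a small subunit protein specific to mitochondria, had 2396, 2380 and 2500 at 500 nM, against 1860, 1622 and 1797 with DMSO, a change of 0.46 ± 0.08 (limma adjusted p = 2.3e-04). MRPS6, a small subunit gene with a bacterial counterpart, had 966, 945 and 941 at 500 nM, against 749, 805 and 731 with DMSO, also without overlap. Its change was 0.32 ± 0.07 (limma adjusted p = 0.0018), but MRPS6 shares exon sequence with SLC5A3 on the same strand. MRPL33, a large subunit gene with a bacterial counterpart, had 1449, 1476 and 1349 at 500 nM, against 1233, 1121 and 1174 with DMSO. Its change of 0.28 ± 0.09 (limma adjusted p = 0.0203) was no longer called with replicate 2 left out of each group, nor without the 500 nM replicate 1, the 500 nM replicate 2 or the DMSO replicate 2 library alone.

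The 120 bases upstream of the annotated start are shown for the gene that fell most, for MRPL47 and for MRPL54, which rose most. They are RefSeq sequences of build GRCh38.p14, printed 5′ to 3′ on the gene's strand. Capitals mark 2 motifs searched on both strands: CCGGAAG, the core bound by ETS factors including GABPA, and AAGATGGC, the core bound by YY1.
MRPL11, chr11:66438849-66438968, minus strand: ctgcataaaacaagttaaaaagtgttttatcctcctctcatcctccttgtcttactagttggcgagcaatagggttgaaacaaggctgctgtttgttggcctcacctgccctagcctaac
MRPL47, chr3:179604639-179604758, minus strand: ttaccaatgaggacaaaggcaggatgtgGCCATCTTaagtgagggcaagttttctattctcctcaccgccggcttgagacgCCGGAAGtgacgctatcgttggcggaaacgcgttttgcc
MRPL54, chr19:3762562-3762681, plus strand: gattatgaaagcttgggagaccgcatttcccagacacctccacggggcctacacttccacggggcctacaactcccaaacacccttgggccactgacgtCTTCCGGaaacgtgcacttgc
In these windows MRPL11 holds neither motif, MRPL47 holds both and MRPL54 holds the ETS motif on the other strand.

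Promoter windows of RefSeq, 250 bases before to 50 after the start, were matched for 66 of the 75 genes. The ETS motif was in 27 of them (40.9%), against 10.7% of all 27305 windows. AAGATGGC was in 20 (30.3%), against 3.03% of all windows. The palindromic NRF1 motif was in 6 (9.09%, against 6.29%), and CACGTG, the E-box of MYC and MAX, was also in 6 (9.09%, against 7.43%). Median GC content was 60.3% in the genes' windows and 58.3% in all windows. In LNCaP95 at 500 nM, 13 of the 27 genes with the ETS motif fell and 3 rose, and 30 of the 39 without it fell and 1 rose. Of the 20 genes with AAGATGGC, 15 fell and 0 rose, and of the 46 without it, 28 fell and 4 rose. Genes that fell were therefore found with and without each motif, and no test was made of these splits.

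**Figure D3:**
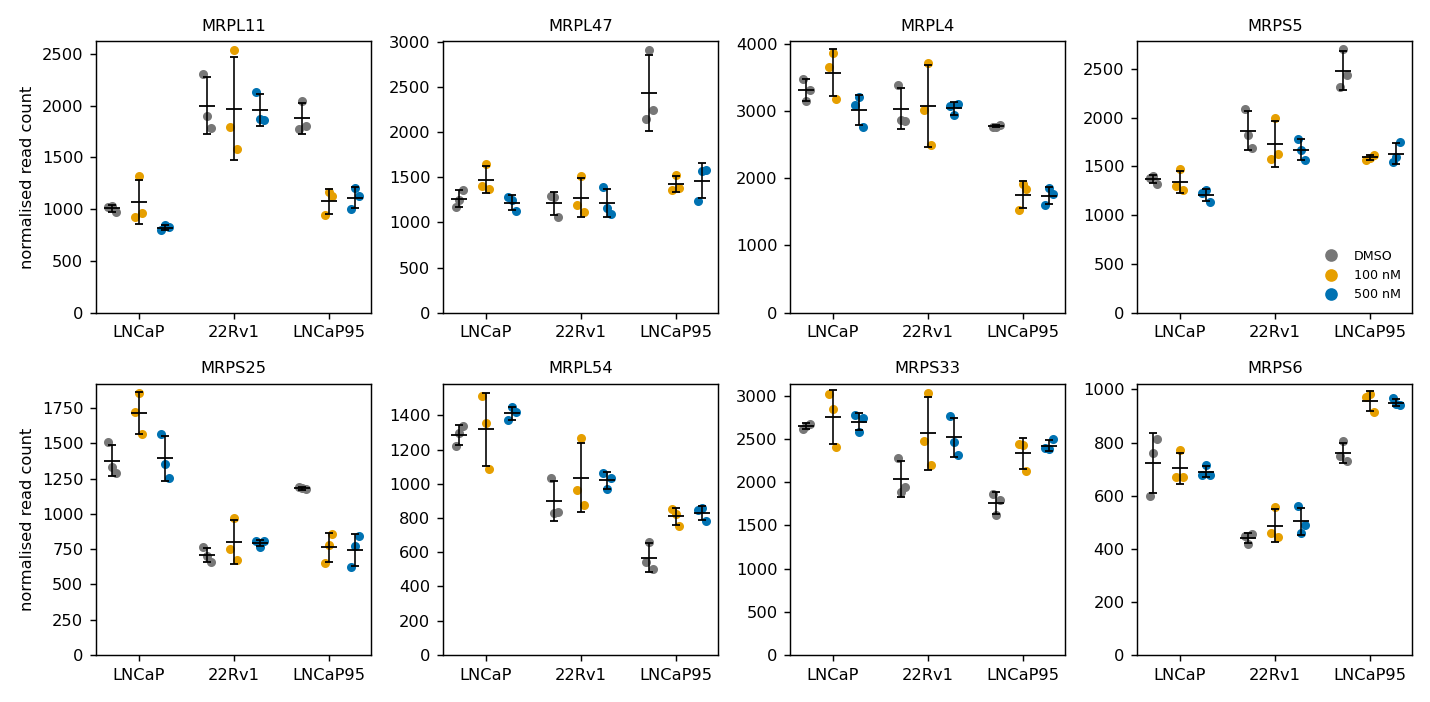
Normalised read counts of 8 genes by line, with DMSO, 100 nM and 500 nM in that order within each line. Points are libraries, the horizontal mark is the mean and whiskers are 1 SD (n = 3); MRPL11 in LNCaP95 lies between 942 and 1200 in treated libraries and between 1775 and 2047 with DMSO.

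Other large subunit genes with bacterial counterparts were among the largest falls in LNCaP95. MRPL4 had 1598, 1850 and 1773 normalised counts at 500 nM, against 2769, 2765 and 2798 with DMSO, a change of -0.68 ± 0.09 (limma adjusted p = 2.9e-05). MRPL19 had 1317, 1587 and 1514, against 2256, 2718 and 2089 with DMSO, a change of -0.67 ± 0.10 (adjusted p = 8.3e-05). Neither pair of groups overlapped. MRPL16 changed by -0.59 ± 0.10 and MRPL35 by -0.57 ± 0.11 (adjusted p = 2.3e-04 and 5.4e-04). MRPL12, the stalk protein also known to bind the mitochondrial RNA polymerase, was at low counts of 139, 190 and 194 at 500 nM, against 239, 327 and 238 with DMSO. Its change was -0.62 ± 0.17 (adjusted p = 0.0071), and an unnamed gene on the same strand overlaps it.

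RNAs of genes for proteins specific to the mitochondrial large subunit fell as well. MRPL42 had 1448, 1873 and 1668 normalised counts at 500 nM, against 2600, 2722 and 2672 with DMSO, without overlap, and changed by -0.69 ± 0.10 (limma adjusted p = 1.2e-04). MRPL37 changed by -0.58 ± 0.08 (adjusted p = 4.0e-05) and MRPL50 by -0.47 ± 0.09 (adjusted p = 8.0e-04). MRPL45, which lies at the exit tunnel and faces the inner membrane, changed less, by -0.25 ± 0.08 (adjusted p = 0.0181), and lost its call without the 500 nM replicate 1 or the DMSO replicate 2 library. MRPL48 was not called, at -0.02 ± 0.08 (adjusted p = 0.872).

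In the small subunit, MRPS25, a protein specific to mitochondria, had 621, 769 and 845 normalised counts at 500 nM, against 1189, 1179 and 1173 with DMSO. The groups did not overlap, and the change was -0.68 ± 0.12 (limma adjusted p = 3.0e-04); MRPS25 overlaps NR2C2 on the other strand. MRPS5, a counterpart of a bacterial protein near the decoding site, had 1543, 1598 and 1753, against 2314, 2703 and 2433 with DMSO, a change of -0.60 ± 0.08 (adjusted p = 2.4e-05). MRPS12, at the decoding centre, changed by -0.45 ± 0.07 (adjusted p = 1.8e-04), and it overlaps SARS2 on the other strand.

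MRPS16 and MRPS22, both mutated in inherited deficiencies of mitochondrial translation, fell by less in LNCaP95, at -0.29 ± 0.08 and -0.28 ± 0.08 at 500 nM (limma adjusted p = 0.0094 and 0.0097). MRPS27, a pentatricopeptide repeat protein, changed by -0.24 ± 0.07 (adjusted p = 0.0155). MRPL3, a core large subunit protein also mutated in such disease, changed by -0.34 ± 0.08 (adjusted p = 0.0037). The 3 paralogs of the MRPS18 family were alike in size: MRPS18C changed by -0.34 ± 0.10 and MRPS18B by -0.22 ± 0.08, both called (adjusted p = 0.0111 and 0.0325), and MRPS18A by -0.21 ± 0.08, which was not called (adjusted p = 0.0518). MRPS18B lost its call without the 500 nM replicate 1, 2 or 3 or the DMSO replicate 1 or 3 library, so its call rests on single libraries. MRPS27 lost its call without the 500 nM replicate 1 or 3 or the DMSO replicate 3 library, and MRPS18C without 500 nM replicate 1.

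By the annotation, 33 of the 75 genes have an exon overlapped by another gene, and not every overlap is remarked on where a gene is named. On the same strand, MRPL20 is overlapped by RN7SL657P, MRPL42 by RN7SL737P, MRPS16 by DNAJC9, MRPL28 by TMEM8A and MRPS24 by URGCP-MRPS24. A pseudogene of their name exists for 32 of the 75, and 24 have neither an overlap nor a pseudogene. Among these 24 in LNCaP95, 17 fell and 2 rose at 500 nM, with a median of -0.27, and 18 fell and 2 rose at 100 nM, with a median of -0.33. Over all genes, 24.1% were called lower and 28.2% higher at each dose. The change at 500 nM was lower in LNCaP95 than in LNCaP for 6 of the 24 and higher for 0, when 19.1% of all genes were lower and 19.8% higher. Against 22Rv1 it was lower for 4 and higher for 0, when 12.4% of all genes were lower and 13% higher. Whether the 24 differ from all genes in this was not tested.

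In LNCaP few of the 75 genes were called. At 100 nM, 12 rose and 1 fell against DMSO (limma), when 13.7% of all genes were called higher and 11.6% lower; the median was 0.13 over the 75 genes and 0.00 over all genes. At 500 nM, 3 rose and 5 fell, when 11% of all genes were called higher and 9.83% lower, with a median of -0.02 over the 75. With library totals made equal, the split at 500 nM was 4 higher and 1 lower, so its direction depends on the scaling. These counts also rest on single libraries: at 100 nM they were 3 without the 100 nM or the DMSO replicate 2 library, 5 without DMSO replicate 3 and 21 without DMSO replicate 1, and at 500 nM they were 0 or 1 without any 500 nM library, DMSO replicate 2 or DMSO replicate 3. Of the genes named below for 100 nM, MRPL36 and MRPL50 kept their call whichever library was left out, and each of the 8 genes called at 500 nM lost it without 500 nM replicate 1.

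The largest rise in LNCaP at 100 nM was that of MRPL23, a protein at the exit of the peptide tunnel. It had 2082, 2317 and 1713 normalised counts at 100 nM, against 1658, 1348 and 1366 with DMSO, without overlap (0.48 ± 0.12, limma adjusted p = 0.0144); it overlaps the antisense gene MRPL23-AS1. MRPL36, whose protein is a counterpart of a very small bacterial one, had 1509, 1657 and 1322, against 1154, 1068 and 1104 with DMSO (0.43 ± 0.09, adjusted p = 0.0087). MRPL50 had 1030, 1035 and 972 at 100 nM and 1003, 885 and 898 at 500 nM, against 779, 712 and 785 with DMSO. MRPL50 was called higher at both doses, by 0.42 ± 0.09 and 0.29 ± 0.09 (adjusted p = 0.0066 and 0.0372). MRPL14 and MRPS12 also rose at 100 nM, by 0.42 ± 0.11 and 0.43 ± 0.13 (adjusted p = 0.0211 and 0.0281). For MRPS12 the DMSO replicate 1 library stood apart, at 1917 against 1422 and 1452, and overlapped the 100 nM libraries.

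MRPL48, a large subunit protein specific to mitochondria, was called lower in LNCaP at both doses. It had 761, 753 and 681 normalised counts at 100 nM and 707, 747 and 757 at 500 nM, against 824, 1010 and 1072 with DMSO, a change of -0.40 ± 0.11 and -0.39 ± 0.11 (limma adjusted p = 0.0212 and 0.0276). At 500 nM, MRPL28 changed by -0.36 ± 0.10, the stalk protein gene MRPL10 by -0.35 ± 0.10, MRPS18B by -0.32 ± 0.09 and MRPS24 by -0.30 ± 0.09 (adjusted p = 0.0275, 0.0306, 0.0288 and 0.0408). MRPL49 and MRPL27 were called higher at that dose, by 0.34 ± 0.09 and 0.32 ± 0.09 (adjusted p = 0.0278 and 0.0319). MRPL49 overlaps FAU and SYVN1 on the other strand. MRPL27, at the peptidyl transferase centre, also rose at 100 nM, by 0.38 ± 0.09 (adjusted p = 0.0136).

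Between the doses in LNCaP, 69 of the 75 genes were below 0 at 500 nM against 100 nM, with a median of -0.16, against 51.5% of all genes below 0. None was called by limma, edgeR or DESeq2, when limma called 0.00779% of all genes; 23 of the 75 had an unadjusted p under 0.05, against 11.4% of all genes. The libraries of the doses did not overlap for 28 of the 75 genes, all lower at 500 nM, against 18.4% of all genes in either direction. The 75 nuclear genes of respiratory chain subunits had 74 below 0 with a median of -0.19. The share of reads in cytosolic ribosomal protein genes averaged 10.9% at 500 nM and 11.6% at 100 nM; its part in the result was not tested.

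In 22Rv1, 0 of the 75 genes were called at 500 nM and 0 at 100 nM by limma, when 6.97% and 6.55% of all genes were called. Unadjusted p was under 0.05 for 4 of the 75 genes at each dose, against 22.9% of all genes at 500 nM and 22% at 100 nM; edgeR called 0 at each, and DESeq2 called 1 at 500 nM and 0 at 100 nM. Without the DMSO replicate 3 library, limma also called 0 at each. Medians were 0.01 at 500 nM and 0.07 at 100 nM. The smallest p at 500 nM was that of MRPL16, a large subunit gene with a bacterial counterpart, at 1513, 1576 and 1595 normalised counts against 2290, 1824 and 1907 with DMSO. The groups did not overlap, but the change of -0.36 ± 0.10 had an adjusted p of 0.0619. MRPS33 was at 0.31 ± 0.13 (adjusted p = 0.171). Between the doses 0 genes were called by limma, edgeR or DESeq2, 0 of the 75 had an unadjusted p under 0.05 (1.12% of all genes), and 0% of all genes were called. With 100 nM replicate 3 left out, 2 genes were called higher at 100 nM against DMSO.

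The differences between lines were tested directly in 1 fit of all 27 libraries. The change at 500 nM was lower in LNCaP95 than in LNCaP for 28 of the 75 genes and higher for 2, when 19.1% of all genes were lower and 19.8% higher. It was lower in LNCaP95 than in 22Rv1 for 21 and higher for 0 (12.4% and 13% of all genes). Medians were -0.24 and -0.30. Against LNCaP the count was 17 without the LNCaP95 500 nM replicate 1 library, and against 22Rv1 it was 18 without the 22Rv1 DMSO replicate 3 library. Between 22Rv1 and LNCaP only MRPL45 was called, at 0.37 ± 0.12 (limma adjusted p = 0.03; 14.3% of all genes called), and with library totals made equal 7 genes were called, all lower in 22Rv1. That scaling moved the median of all genes in this difference by -0.16. The call of MRPL45 was lost with equal totals and without any of several single libraries, among them 22Rv1 500 nM replicate 1, 22Rv1 DMSO replicate 3 and LNCaP DMSO replicate 3.

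MRPL35 differed most between LNCaP95 and LNCaP, by -0.83 ± 0.15 (limma adjusted p = 9.7e-05). It had 544, 600 and 610 normalised counts at 500 nM against 813, 935 and 866 with DMSO in LNCaP95, and 596, 641 and 569 against 504, 506 and 505 in LNCaP. Its 500 nM libraries were thus below all DMSO libraries in LNCaP95 and above them in LNCaP, where MRPL35 was not called. In LNCaP at 500 nM, 2513 of 12837 genes tested lay above all DMSO libraries and 2730 below. MRPL50 differed by -0.77 ± 0.13 and MRPL19 by -0.70 ± 0.12 (adjusted p = 6.1e-05 and 1.0e-04). MRPS33 and MRPS6 differed the other way, by 0.44 ± 0.15 and 0.38 ± 0.15 (adjusted p = 0.021 and 0.0462); MRPS6 lost its call with equal totals, with no filter on low values and in every fit that left out 1 library of these lines except LNCaP DMSO replicate 1 or LNCaP95 DMSO replicate 2, and MRPS33 lost its call without LNCaP 500 nM replicate 2 or LNCaP95 DMSO replicate 2. Against 22Rv1, MRPS25 differed most, by -0.84 ± 0.18 (adjusted p = 0.0014). In 22Rv1 it had 810, 768 and 805 at 500 nM against 764, 699 and 660 with DMSO, where LNCaP95 had 621, 769 and 845 against 1189, 1179 and 1173.

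Over the 3 lines together, with the line as a term, 16 of the 75 genes fell at 500 nM and 3 rose, when 9.86% of all genes were called lower and 13% higher, with a median of -0.10. MRPL16 fell most, by 0.39 ± 0.07 on the log2 scale (limma adjusted p = 3.97e-04), and its value was below 0 in each line (-0.24 in LNCaP, -0.36 in 22Rv1 and -0.59 in LNCaP95). MRPL11 was at -0.36 ± 0.09, MRPS5 at -0.31 ± 0.07 and MRPS9, a counterpart of a bacterial small subunit protein, at -0.26 ± 0.07 (adjusted p = 0.0083, 0.0042 and 0.0151). MRPL54, MRPS33 and MRPL49 rose, by 0.29 ± 0.07, 0.27 ± 0.06 and 0.19 ± 0.05 (adjusted p = 0.0079, 0.0067 and 0.0076). Several of these common values rest mostly on LNCaP95: MRPL11 was at -0.02 in 22Rv1 and -0.30 in LNCaP, neither called. The count of called genes was 11 without LNCaP95 500 nM replicate 1, DMSO replicate 1 or DMSO replicate 3, and 12 without LNCaP95 DMSO replicate 2.

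With DMSO alone the lines already differed for most of the 75 genes, as for most genes at large. LNCaP95 was higher than LNCaP for 34 of the 75 genes and lower for 15, when 34% of all genes were higher and 32.5% lower; with library totals made equal the split was 43 higher and 8 lower. LNCaP95 was higher than 22Rv1 for 37 and lower for 13 (35.4% and 40.8% of all genes). 22Rv1 was higher than LNCaP for 21 and lower for 30 (39.3% and 35.5% of all genes), a split of 25 and 24 with equal totals. Equal totals moved the median of all genes by 0.21 between LNCaP95 and LNCaP and by 0.14 between LNCaP95 and 22Rv1. Cytosolic ribosomal protein genes were lower in LNCaP95 than in LNCaP for 78 of 78, with a median of -1.90, against 0.11 for the 75 mitochondrial ones. The lines and any handling that differed between them cannot be told apart.

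**Figure D4:**
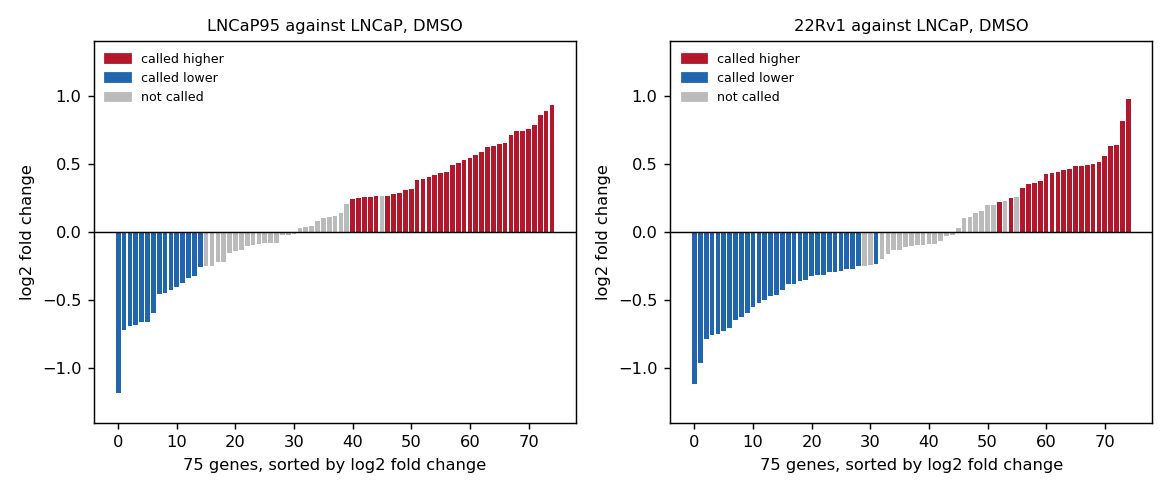
Log2 fold change between DMSO libraries of 2 lines for the 75 genes, sorted along the horizontal axis. Bars are red where called higher, blue where called lower and grey where not called; 34 genes are higher and 15 lower in LNCaP95 against LNCaP (left), and 21 higher and 30 lower in 22Rv1 against LNCaP (right).

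The DMSO levels of genes with large drug changes in LNCaP95 are set side by side here. Against LNCaP DMSO, LNCaP95 DMSO was higher by 0.94 ± 0.13 for MRPL47, 0.89 ± 0.14 for MRPL11, 0.86 ± 0.09 for MRPS5 and 0.78 ± 0.10 for MRPL35 (limma adjusted p = 8.7e-07, 5.6e-06, 1.7e-08 and 3.9e-07). MRPL54 had the lowest value, at -1.18 ± 0.13 (adjusted p = 1.1e-08): it had 544, 661 and 501 normalised counts in LNCaP95 DMSO, against 1223, 1295 and 1337 in LNCaP DMSO. These comparisons use the same LNCaP95 DMSO libraries as the drug comparisons, so a high DMSO value enters both.

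Among pairs of lines, the widest difference was that of MRPL20, a large subunit gene with a bacterial counterpart. It had 6040, 7420 and 6218 normalised counts in LNCaP95 DMSO, against 2720, 2169 and 2059 in 22Rv1 DMSO (1.51 ± 0.12, limma adjusted p = 4.2e-11), and 5242, 4742 and 4949 in LNCaP DMSO. MRPL48 and MRPL43 went the other way between LNCaP95 and 22Rv1, at -1.04 ± 0.11 and -1.03 ± 0.10 (adjusted p = 1.1e-08 and 2.2e-09). MRPL11 was also higher in 22Rv1 than in LNCaP, by 0.97 ± 0.14 (adjusted p = 1.1e-06). Without the 22Rv1 DMSO replicate 3 library, 20 genes were called higher and 24 lower in 22Rv1 than in LNCaP, and 33 higher and 12 lower in LNCaP95 than in 22Rv1.

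Genes that work with the mitochondrial ribosome were examined in LNCaP95 at 500 nM beside the 75. Over all genes in this comparison, 24.1% were called lower and 28.2% higher. Of 7 mitochondrial ribosomal proteins under other names, 4 fell and 0 rose, with a median of -0.25: PTCD3 by -0.56 ± 0.08, GADD45GIP1 by -0.48 ± 0.08, ICT1 by -0.44 ± 0.08 and AURKAIP1 by -0.25 ± 0.09 (limma adjusted p = 9.6e-05, 3.7e-04, 3.95e-04 and 0.0357). Of 27 tested genes of ribosome assembly and ribosomal RNA modification, 14 fell and 4 rose, and of 17 translation factors 9 fell and 2 rose. GFM1, the elongation factor that moves the ribosome along, was at -0.51 ± 0.08 (adjusted p = 8.9e-05). Of 17 mitochondrial aminoacyl-tRNA synthetases, which load amino acids on tRNAs, 13 fell and 0 rose, with a median of -0.40.

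The nuclear genes of respiratory chain subunits had 33 of 75 lower and 1 higher in LNCaP95 at 500 nM, with a median of -0.17. In either direction 45.3% of this list were called, against 52.3% of all genes (24.1% lower and 28.2% higher). Of 13 regulators of mitochondrial biogenesis, 6 fell and 1 rose. PPARGC1B, a coactivator of these genes, was at -1.46 ± 0.19, TFAM, which packages mitochondrial DNA, at -0.56 ± 0.11, and NRF1, a transcription factor for nuclear mitochondrial genes, rose by 0.98 ± 0.12 (limma adjusted p = 3.8e-05, 7.3e-04 and 1.6e-05). The 13 mitochondrially encoded mRNAs, the templates of this ribosome, were all above 0 with a median of 0.55, but the smallest adjusted p was 0.0937 (MT-CYB), and the 500 nM libraries ran between 1.99% and 6.92% of reads. All 13 were also above 0 at 500 nM in LNCaP (median 0.45, 0 called) and in 22Rv1 (median 0.49, 6 called higher). Of all genes in 22Rv1, 6.97% were called in either direction. Of 78 cytosolic ribosomal protein genes 19 rose and 3 fell in LNCaP95. That was 28.2% of the list called in either direction, below the 52.3% of all genes. In LNCaP at 500 nM, by contrast, 65 of these 78 fell and 0 rose, when 9.83% of all genes were called lower and 11% higher. Of the 75 mitochondrial ones, 5 fell and 3 rose in LNCaP. The median log2 fold changes there were -0.50 for the cytosolic and -0.02 for the mitochondrial genes.

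**Figure D5:**
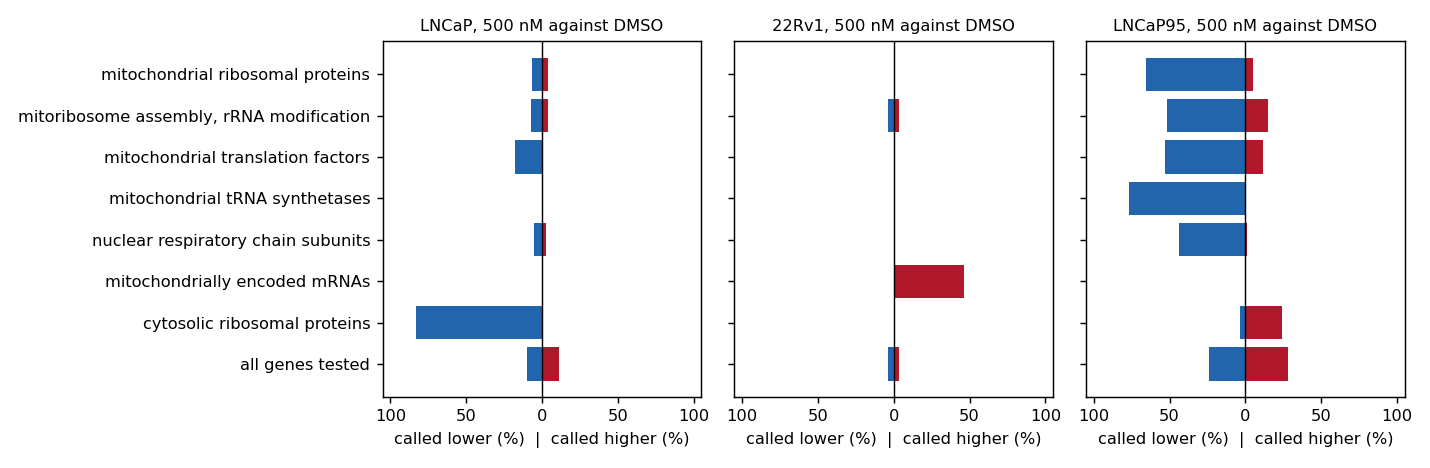
Share of each gene list called lower (blue, to the left) and higher (red, to the right) at 500 nM against DMSO in each line, in percent of the genes tested. In LNCaP95 49 of the 75 mitochondrial ribosomal protein genes are lower and 4 higher, in LNCaP 5 and 3, and in 22Rv1 0 and 0. Of all genes, 24.1% are lower and 28.2% higher in LNCaP95, and 9.83% and 11% in LNCaP. In 22Rv1 6.97% are called in either direction.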

How the data were processed

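Poly(A) RNA from 27 libraries (9 groups of 3) was sequenced by the submitters. Per the submitters' processing notes, reads were handled with STAR 2.3.1z4, featureCounts and DESeq on genome build hg19; how the counting treated strand was not given in the sources used here. The deposited table gives each gene's signal, a read count that the authors divided by a size factor per library. All values (100%) were whole multiples of the value of 1 read, within 1e-06, so whole reads could be recovered for alternatives. Columns of no sample numbered 0.

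The design had assumed normalised values, and the main test stayed on that scale: limma 3.58.1 in R 4.3.3 on log2(value + 1), trended prior variance, two-sided, Benjamini-Hochberg over all genes with a value of 10 or more in at least 3 of the fitted libraries, called at adjusted p under 0.05. For the common effect and the differences between lines, this filter had to be passed within each line. For the DMSO comparisons it had to be passed among the DMSO libraries. Fold changes on this scale understate changes of low genes. Comparisons within a line used its 9 libraries, the common effect 18, and differences between lines and DMSO comparisons all 27, which gives each gene 1 spread over the lines. Errors after ± are standard errors. Functions were tested on simulated counts, where DESeq2 made more false calls than limma in each comparison and, in some, more than the bound first set for it, which was then widened for the alternative tools. Alternatives were edgeR 4.0.16 and DESeq2 1.42.0 on recovered reads, another pseudocount (5), no filter, equal totals, a replicate block, other sets of libraries and leaving out each library.

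Same-numbered LNCaP95 libraries deviated together in 9 of 9 pairs (r = 0.128 to 0.470), a pairing seen in the data and not given by the labels. The 75 genes, the lists and the tests were chosen with earlier results of these data known. Named genes were the largest called changes of each comparison (up to 8 and 8 at 500 nM and in the common effect, up to 5 and 5 elsewhere), the 5 highest and 5 lowest per kilobase, a panel of 12 with known roles, and up to 4 genes of each related list with the smallest p; genes in counts of 5 or fewer were named after their values were seen. Overlaps, pseudogenes and transcript lengths came from GENCODE 29, of another build, by symbol alone.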

Additional observations from a re-analysis of the deposited data

Results flagged for a closer look

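The test of the difference between lines in the change at 500 nM passed the threshold for 28 genes lower and 2 higher in LNCaP95 than in LNCaP, 1 higher in 22Rv1 than in LNCaP, and 21 lower and 0 higher in LNCaP95 than in 22Rv1. Over all genes, 19.1% were lower and 19.8% higher in LNCaP95 than in LNCaP, and 12.4% and 13% against 22Rv1. Between 22Rv1 and LNCaP 14.3% of all genes were called in either direction, against the 1 of 75 here. The values here are log2 differences of those named, at most 5 in each direction. Between LNCaP95 and LNCaP, those named were MRPL35 (-0.83), MRPL50 (-0.77), MRPL19 (-0.70), MRPL42 (-0.69), MRPS25 (-0.69), MRPS6 (0.38) and MRPS33 (0.44). Between 22Rv1 and LNCaP, MRPL45 (0.37) was the one called. Between LNCaP95 and 22Rv1, those named were MRPS25 (-0.84), MRPL19 (-0.78), MRPL11 (-0.73), MRPL47 (-0.73) and MRPL37 (-0.72).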

How the results depend on the processing

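No call of a named gene changed direction under any alternative run. The split of called genes did change with equal totals. In LNCaP at 500 nM it went from 3 higher and 5 lower to 4 higher and 1 lower. For 22Rv1 minus LNCaP it went from 1 higher and 0 lower to 0 higher and 7 lower. In LNCaP95 the count of called genes was 41 to 50 at 500 nM and 47 to 55 at 100 nM when single libraries were left out. The replicate block gave 52 lower and 5 higher at 500 nM and 57 lower and 4 higher at 100 nM. The fits with replicates 1 and 3 only were chosen after seeing the data. In LNCaP at 500 nM, equal totals gave 5 called genes and leaving out single libraries 0 to 11. In LNCaP at 100 nM, equal totals gave 21, replicates 2 and 3 only 21, the replicate block 24 and leaving out single libraries 3 to 21; same-numbered LNCaP libraries correlated over 0.1 in 6 of 9 pairs, and 8 of 9 libraries correlated best with their own number. Between the LNCaP doses, replicates 2 and 3 only gave 1. In 22Rv1, at 500 nM, equal totals gave 2, DESeq2 1 and the fit of all 27 libraries 1; at 100 nM, equal totals gave 1 and single libraries left out 0 to 2; 5 of 9 libraries correlated best with their own number. For the common effect, the replicate block gave 12 and single libraries left out 11 to 20. For 22Rv1 minus LNCaP, equal totals gave 7, edgeR 2, DESeq2 2, the replicate block 4, LNCaP replicates 2 and 3 only 2 and single libraries left out 0 to 6. With single libraries left out, LNCaP95 minus LNCaP gave 17 (without LNCaP95 500 nM replicate 1) to 31, and LNCaP95 minus 22Rv1 16 to 28. Equal totals gave 39 for LNCaP95 minus LNCaP (1 higher and 38 lower). For LNCaP95 minus 22Rv1 they gave 22 (1 higher and 21 lower). The block changed no other count by over 1.5 times. Of 2287 values of named genes under alternatives, 2116 kept their side of the threshold, 152 lost the call and 19 gained one. Direction was compared only where a call was made, and causes were not tested. With 3 libraries per group, changes under about the spread between libraries were not detectable.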
